A study of Mus musculus with 8 samples.

Results

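The genes described here are 42 genes of DNA synthesis and cell division, 16 that act in S phase and 26 that act in mitosis, out of 18138 gene symbols on the array. They were found as the probes whose gene symbol in the deposited table is on a list of these genes. The list was drawn up with earlier results of these data known. The array carried 59 probes for 37 of them. Gins1, Gins2, Mki67, Aurkb and Kif20a had no probe under these symbols and were not analysed here. Of the 37, 30 genes (12 of S phase, 18 of mitosis) with 42 probes were detected on enough arrays to be tested.

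Total RNA was taken from ileal tumours of mice and hybridised to Illumina BeadChips, 1 array per sample. All mice carried the APCmin/+ allele, a truncated copy of the tumour suppressor Apc that gives rise to intestinal tumours, were of a mixed C57BL/6J-FVBN strain and were 8 months old. The 4 control tumours carried the VP16 transgene, the viral activation domain alone, and the 4 others carried VP16LXRa, in which that domain is joined to LXRα, a nuclear receptor that responds to oxysterols. The sources used here do not give the promoter that drives the transgenes, the sex of the mice or whether each array is a separate animal. The p-values therefore speak only of the spread among these 8 samples, which may be technical. The arrays are called controls 1 to 4 and VP16LXRa 5 to 8, after the numbers in their labels.

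A cell that divides first copies its DNA and then separates the copies. Enzymes that make nucleotides, proteins that license replication origins and the replication fork itself are made largely before and during S phase, under E2F transcription factors. The cyclins, kinases, kinesins and checkpoint proteins of mitosis peak later, and their promoters are known for a pair of short elements, CCAAT and the cell cycle homology region (CHR), the latter read by the MuvB complexes. In the intestine such transcripts belong to the dividing cells of crypts and adenomas, and PCNA, Ki-67 and topoisomerase IIα are stained in tissue sections as signs of proliferation. LXR agonists are known to slow the division of several cell types, and the comparison asks whether tumours with the activated receptor differ in these transcripts.

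The promoters of 5 members are printed because they show these elements in S phase and mitosis genes whose array values are given further on. Each line holds 150 bases before to 30 bases after the transcription start in RefSeq's annotation of mouse GRCm38.p6, 180 bases in all, written in the direction of transcription. Capitals mark the searched letters on either strand: for the S phase genes an E2F element (TTTCCCGC or TTTGGCGC, or their complements), and for the mitosis genes CHR (TTTGAA or its complement) and CCAAT (or its complement). Cdc6 lies at chr11:98908001-98908180 on the plus strand and Rfc3 at chr5:151651179-151651358 on the minus strand.
Cdc6: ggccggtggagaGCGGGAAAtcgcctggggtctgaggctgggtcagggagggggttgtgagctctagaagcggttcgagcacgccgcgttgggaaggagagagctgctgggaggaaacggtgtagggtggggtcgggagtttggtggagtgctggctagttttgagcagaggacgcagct
Rfc3: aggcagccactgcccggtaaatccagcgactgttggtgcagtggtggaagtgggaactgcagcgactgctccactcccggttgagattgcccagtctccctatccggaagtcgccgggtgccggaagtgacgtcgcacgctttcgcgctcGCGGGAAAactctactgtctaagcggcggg

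Of the mitosis genes, Cdc2a (Cdk1 in RefSeq) lies at chr10:69352883-69353062 on the minus strand, Cdc20 at chr4:118437314-118437493 on the minus strand and Cenpa at chr5:30666736-30666915 on the plus strand.
Cdc2a: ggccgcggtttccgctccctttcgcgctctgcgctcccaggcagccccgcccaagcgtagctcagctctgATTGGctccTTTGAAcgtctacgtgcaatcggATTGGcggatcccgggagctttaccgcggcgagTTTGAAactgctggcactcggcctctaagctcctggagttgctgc
Cdc20: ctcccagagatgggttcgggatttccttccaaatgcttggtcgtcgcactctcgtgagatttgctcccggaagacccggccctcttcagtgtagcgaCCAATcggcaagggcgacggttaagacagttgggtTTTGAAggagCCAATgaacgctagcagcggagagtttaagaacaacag
Cenpa: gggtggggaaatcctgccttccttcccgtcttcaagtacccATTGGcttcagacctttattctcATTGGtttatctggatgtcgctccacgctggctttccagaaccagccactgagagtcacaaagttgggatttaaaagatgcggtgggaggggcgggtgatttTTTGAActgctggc

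The E2F letters stood 131 to 138 bases before the start in Cdc6 and at bases 1 to 8 after it in Rfc3. Cdc2a held CHR letters at 10 to 15 and 66 to 71 bases before the start, with CCAAT at 44 to 48 and 76 to 80. In Cdc20 the CHR letters stood at 13 to 18 bases before the start, between CCAAT at 4 to 8 and at 49 to 53. In Cenpa they stood at 17 to 22 bases after the start, with CCAAT at 82 to 86 and 105 to 109 bases before it.

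The same search was run over windows of 250 bases before to 50 after the start, in which 14 of the 16 S phase and 22 of the 26 mitosis genes had an entry. E2F letters were found in 4 S phase genes (28.6%: Cdc6, Cdt1, Pola1 and Rfc3), in 0 mitosis genes and in 1.80% of all 27025 genes with a promoter entry. CHR letters were found in 2 S phase genes (14.3%) and 15 mitosis genes (68.2%), against 20.2% of all genes. CCAAT was found in 7 S phase genes (50%) and 18 mitosis genes (81.8%), against 41.1% of all genes. CHR and CCAAT letters overlapped in 47 of the 2284 promoters that held both, and E2F letters overlapped either in 2 promoters. A match is a run of letters and not a measured binding site, and the absence of a match says only that these letters are not in the window.

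The 8 arrays had median scanner signals of 133.5 to 165.3, with 49.0% to 54.7% of 25697 probes detected above the negative control beads. VP16LXRa 5 stood apart, with a median correlation of 0.869 with the other arrays, against 0.910 to 0.942 for the other 7. The 8 tested epithelial markers, Cdh1, Vil1, Krt8, Krt18, Krt19, Krt20, Cdx1 and Cdx2, were detected on every array at log2 levels of 9.25 to 15.43. In RNA of whole tumours, fewer cells of a type and less RNA per cell cannot be told apart.

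No S phase or mitosis gene passed the test between VP16LXRa and control tumours. Of the 42 tested probes, 27 had a higher and 15 a lower mean in VP16LXRa tumours, and 0 passed an adjusted p of 0.05 in limma's moderated test with Benjamini-Hochberg adjustment over all 13426 probes tested. Their adjusted p-values ran from 0.998 to 0.999. The same held for the whole array, where 0 probes (0%) passed and the smallest adjusted p was 0.0795. At an unadjusted p under 0.05, 0 of the 42 were called against 340 of all probes (2.53%). The groups were free of overlap in 0 of the 42 against 233 of all probes (1.74%).

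Taking each gene by its brightest tested probe, 7 of the 12 S phase genes had the higher mean in VP16LXRa and 5 in control tumours. Their median log2 difference was 0.053, and single genes ran from -0.28 (Rfc3) to 0.45 (Dut). Of the 18 mitosis genes, 13 were higher and 5 lower, with a median of 0.11 and a range from -0.48 (Ube2c) to 0.55 (Aurka). Over all 10159 tested genes, 53.0% were higher and the median was 0.021. All differences here are VP16LXRa minus control on the log2 scale, so that a difference of 1 is 2-fold.

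The median SE of the difference was 0.29 for S phase genes, 0.34 for mitosis genes and 0.30 for all genes. The 95% interval of the difference lay wholly within 2-fold in either direction for 9 of 12 S phase genes (75%) and 10 of 18 mitosis genes (55.6%), against 59.3% of all genes. For the other 11 members a change of 2-fold in at least 1 direction is inside the interval. The lowest bound was -1.41 (Top2a) and the highest 1.33 (Cdc2a). The median range over the 8 arrays was 1.20 for S phase genes, 1.40 for mitosis genes and 1.26 for all genes.

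**Figure D1:**
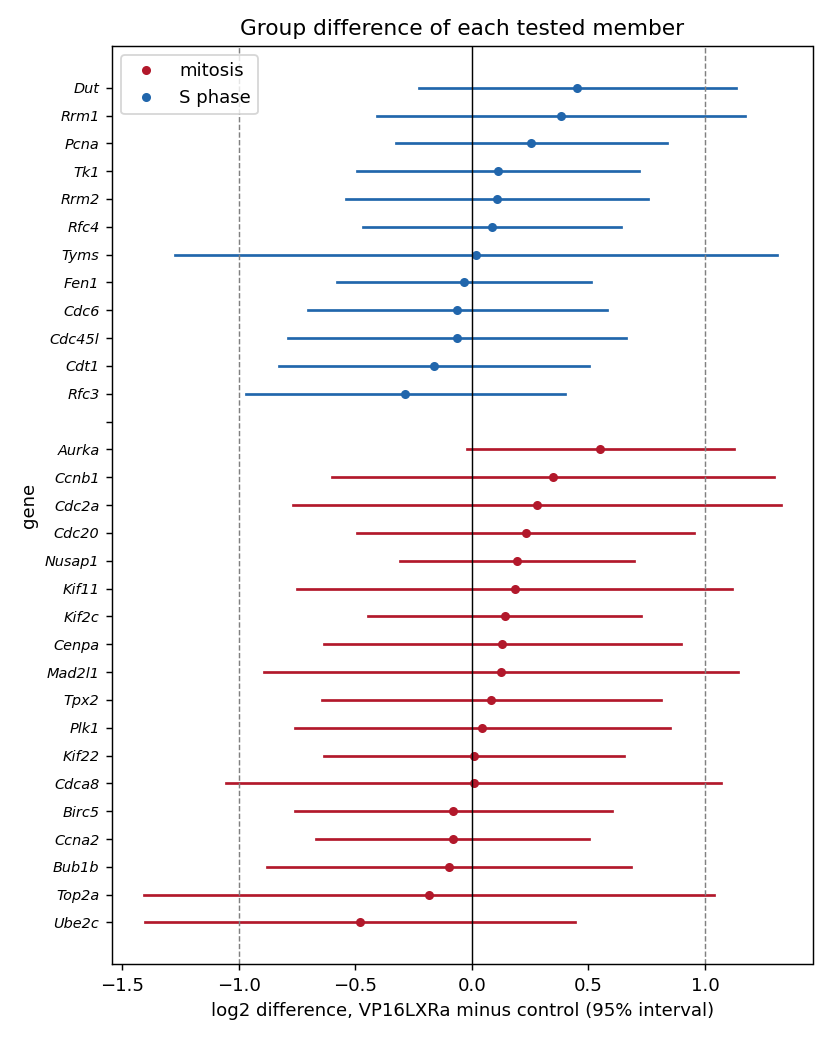
Log2 difference between the 4 VP16LXRa and the 4 control tumours (x axis) for each of the 30 tested members (y axis), blue for S phase and red for mitosis genes. Points are differences of group means, lines are 95% intervals from limma, and the dashed lines mark 2-fold. Every interval spans 0, and Aurka, at 0.55, comes closest to leaving it.

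Among the enzymes that supply nucleotides, Dut, which removes dUTP and yields the precursor of dTTP, had the largest difference of the S phase genes. Its log2 level was 6.34, 6.10, 7.07 and 6.18 in controls 1 to 4 and 7.43, 6.57, 6.54 and 6.97 in VP16LXRa 5 to 8. All VP16LXRa values lay above those of controls 1, 2 and 4, while control 3 lay among them. The means were 6.42 ± 0.45 and 6.88 ± 0.42 (SD, n = 4 each), a difference of 0.45 (SE 0.30, limma adjusted p = 0.998). Without VP16LXRa 5 it was 0.27.

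Rrm1, the large subunit of ribonucleotide reductase, was at 8.01, 8.40, 8.82 and 9.29 in controls 1 to 4 and at 9.67, 9.13, 8.49 and 8.75 in VP16LXRa 5 to 8. The highest value was in VP16LXRa 5, and the other 3 VP16LXRa values lay inside the control range. The difference was 0.38 (SE 0.35), or 0.16 without VP16LXRa 5 and 0.60 without control 4. Tk1, the thymidine kinase of the salvage route, was at 8.58, 8.42, 9.03 and 9.00 in controls and at 8.54, 9.16, 8.50 and 9.27 in VP16LXRa tumours. Each group held a pair of low and a pair of high values, and the difference was 0.11 (SE 0.27), with the other tested Tk1 probe at 0.15. Rrm2 and Tyms, of the same supply route, are given with the remaining genes.

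At the replication fork, Pcna, the sliding clamp that tethers DNA polymerases, was at 7.23, 6.83, 7.10 and 7.70 in controls 1 to 4 and at 7.35, 7.90, 7.19 and 7.45 in VP16LXRa 5 to 8. The groups overlapped, with VP16LXRa 6 and control 4 on top. The difference was 0.26 (SE 0.26), or 0.11 without VP16LXRa 6 and 0.42 without control 4. Fen1, the flap endonuclease that trims Okazaki fragments, was at 9.65, 10.13, 10.01 and 10.33 in controls and at 10.30, 10.21, 9.72 and 9.75 in VP16LXRa tumours. All VP16LXRa values lay inside the control range, and the difference was -0.03 (SE 0.24).

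Rfc3, a subunit of the clamp loader and one of the genes with E2F letters printed above, had the lowest difference of the S phase genes. It was at 6.71, 6.79, 6.71 and 7.77 in controls 1 to 4 and at 6.83, 6.99, 6.79 and 6.23 in VP16LXRa 5 to 8. Control 4 alone was high and VP16LXRa 8 low, and the other 6 arrays lay close together. The difference was -0.28 (SE 0.30), and without control 4 it was -0.02. Cdt1, which loads the replicative helicase at origins, was at 8.93, 8.99, 8.97 and 9.86 in controls and at 8.93, 9.55, 9.00 and 8.62 in VP16LXRa tumours. Control 4 was again the highest array and VP16LXRa 8 the lowest. The difference was -0.16 (SE 0.30), and 0.06 without control 4.

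The remaining 5 tested S phase genes differed by -0.06 to 0.11, 3 higher and 2 lower. They are Rrm2, the small subunit of ribonucleotide reductase (0.11), Tyms, thymidylate synthase (0.02), Rfc4 of the clamp loader (0.09), Cdc6, which licenses origins with Cdt1 (-0.06), and Cdc45l, a part of the replicative helicase (-0.06). Pola1, the catalytic subunit of DNA polymerase α, was detected on no array. Prim1, the primase that works with it, was detected on VP16LXRa 5 (5.41) and VP16LXRa 7 (5.27) only, with the other 6 arrays between 4.52 and 4.76, near the background.

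Among the kinases and cyclins that drive mitosis, Aurka, the kinase of centrosome maturation and spindle assembly, had the largest difference of all members. It was at 8.10, 8.05, 8.36 and 8.61 in controls 1 to 4 and at 9.36, 8.87, 8.56 and 8.54 in VP16LXRa 5 to 8. Control 4 lay just above the lower pair of VP16LXRa values and every other control lay below all of them. The means were 8.28 ± 0.26 and 8.83 ± 0.38 (SD, n = 4 each), a difference of 0.55 (SE 0.25, 95% interval -0.02 to 1.13) or 1.47-fold. Its unadjusted limma p of 0.0575 was the smallest among the members, and the adjusted p was 0.998. Without VP16LXRa 5 the difference was 0.38.

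Cdc2a, the mitotic cyclin-dependent kinase now called Cdk1, was at 7.42, 7.66, 8.57 and 9.38 in controls 1 to 4 and at 7.75, 9.03, 8.46 and 8.90 in VP16LXRa 5 to 8. The controls spanned a wider range than the VP16LXRa tumours, all of which lay inside it. The difference was 0.28 (SE 0.46), with the other tested probe at 0.05. That other probe was faint, at 4.62 to 5.58 over the arrays and detected on 3 arrays of each group. Leaving out single arrays moved the difference of the brighter probe from 0.00014 (without control 1) to 0.65 (without control 4). Ccnb1, cyclin B1 and the partner of that kinase, was at 7.10, 7.30, 8.11 and 8.95 in controls and at 8.38, 8.73, 7.73 and 8.02 in VP16LXRa tumours. Its VP16LXRa values too lay inside the control range. The difference was 0.35 (SE 0.42), or 0.09 without control 1 and 0.71 without control 4, with the other probe at 0.28.

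Cdc20 and Ube2c act with the anaphase-promoting complex, the ubiquitin ligase that ends mitosis, the former as its activator and the latter as its ubiquitin-conjugating enzyme. Cdc20 was at 10.26, 10.37, 9.70 and 10.99 in controls 1 to 4 and at 10.70, 10.91, 10.66 and 9.97 in VP16LXRa 5 to 8. All VP16LXRa values lay inside the control range. The difference was 0.23 (SE 0.32), with the other 3 probes at -0.02, 0.20 and 0.27. It was 0.023 without control 3 and 0.45 without control 4. Ube2c was at 6.56, 5.82, 6.54 and 6.34 in controls and at 4.76, 6.67, 5.58 and 6.34 in VP16LXRa tumours. It was not detected in VP16LXRa 5, the lowest array, and the groups overlapped. The difference was -0.48 (SE 0.41), or -0.12 without VP16LXRa 5 and -0.75 without VP16LXRa 6.

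Other members build the centromere and spindle. Cenpa, the histone H3 variant that marks centromeres, was at 10.83, 11.25, 10.90 and 12.11 in controls 1 to 4 and at 11.48, 11.95, 11.23 and 10.96 in VP16LXRa 5 to 8. All VP16LXRa values lay inside the control range, and the difference was 0.13 (SE 0.34). Birc5, survivin, a subunit of the chromosomal passenger complex, was at 9.91, 10.13, 9.53 and 10.65 in controls and at 10.21, 10.30, 9.96 and 9.44 in VP16LXRa tumours. Control 4 was the highest array and VP16LXRa 8 the lowest, just under control 3. The difference was -0.08 (SE 0.30), with the other probes at -0.08 and 0.0019.

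Nusap1, which bundles spindle microtubules, was at 8.86, 9.28, 9.00 and 9.53 in controls 1 to 4 and at 9.34, 9.59, 9.19 and 9.33 in VP16LXRa 5 to 8. The groups overlapped, and the difference was 0.19 (SE 0.22), or 0.09 without control 1 and 0.32 without control 4. Top2a, topoisomerase IIα, which untangles sister chromatids and marks proliferating cells in histology, was at 8.20, 8.35, 9.49 and 10.33 in controls and at 7.94, 9.74, 8.68 and 9.29 in VP16LXRa tumours. Both groups spread widely, with VP16LXRa 5 lowest and control 4 highest. The difference was -0.18 (SE 0.54). Its direction turned when single arrays were left out, from -0.48 without control 1 to 0.23 without control 4.

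The remaining 9 tested mitosis genes differed by -0.10 to 0.18, 7 higher and 2 lower. The kinesin motors Kif11 (0.18), Kif2c (0.14) and Kif22 (0.01) and the spindle assembly factor Tpx2 (0.08) were among them. So were the spindle checkpoint genes Mad2l1 (0.13) and Bub1b (-0.10), the kinase Plk1 (0.05), cyclin A2, Ccna2 (-0.08), and Cdca8, borealin of the passenger complex (0.01). Ccnb2, Bub1, Cenpe, Ttk and Nek2 were detected on no array and are known here only as being near the background of their probes.

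The arrays of a group differed widely in these genes. Control 4 held the highest level of 17 of the 30 tested members (56.7%), 5 of 12 S phase and 12 of 18 mitosis genes, while it was the highest array for 16.4% of all genes. It lay above the gene's 8-array mean in 27 of the 30 (90%), against 49.9% of all genes. Control 1 was the lowest array for 9 members (30%, against 10.1% of all genes) and above the mean in 2 (6.67%, against 49.6%). In 6 genes control 4 was the highest and control 1 the lowest array, and in the other 11 that control 4 led another array was lowest.

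VP16LXRa 6 lay above the mean in 24 of the 30 members (80%), against 49.6% of all genes. VP16LXRa 5 was the highest array for 6 members, Rrm1, Rrm2, Dut, Cdc45l, Ccna2 and Aurka, and the lowest for 4, Tyms, Top2a, Cdca8 and Ube2c. As a share of the members these are 20% and 13.3%, against 26.7% and 15% of all genes for the same array. It lay above the mean in 73.3% of the members and 64.2% of all genes. VP16LXRa 7 was the highest for 0 members, against 5.18% of all genes. VP16LXRa 8 was the highest for 2 (6.67%), against 10.3% of all genes.

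**Figure D2:**
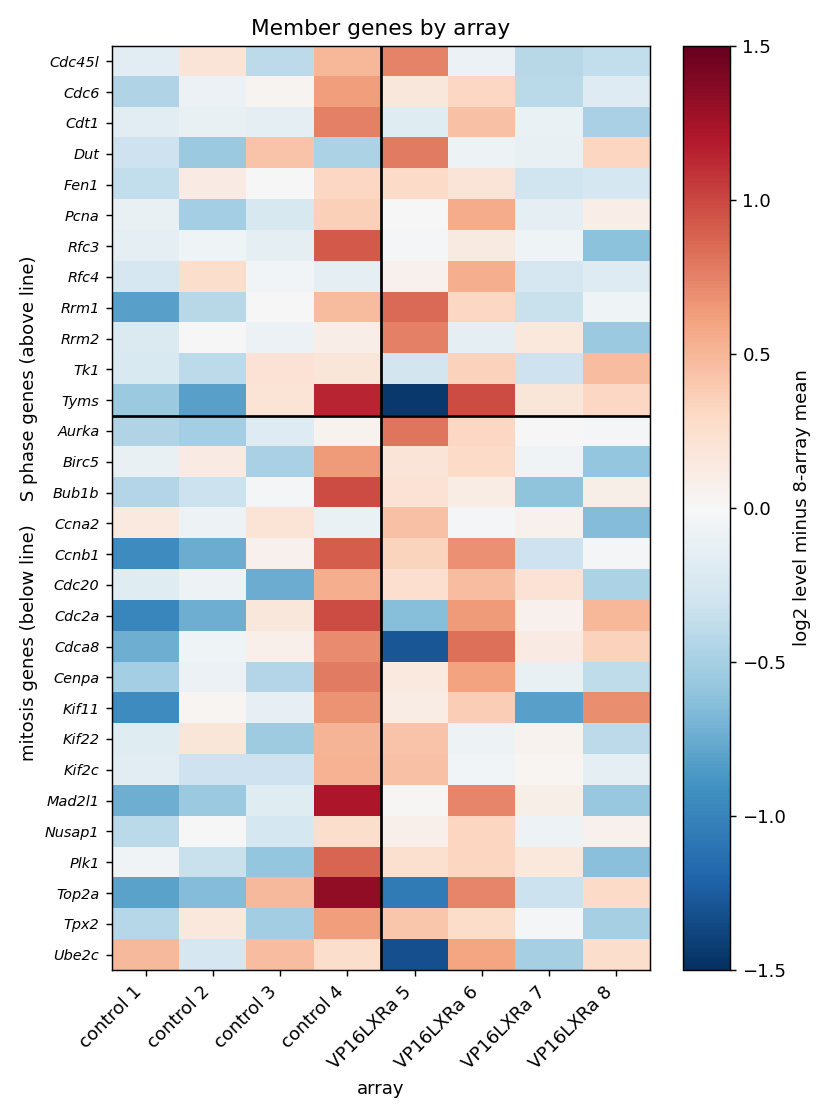
Log2 level of each of the 30 tested members (rows, S phase above and mitosis below the line) in each array (columns, controls left and VP16LXRa right of the line), minus the gene's own mean over the 8 arrays. Control 4 is above the mean in 27 of the 30 rows and control 1 in 2, against 49.9% and 49.6% of all genes.

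A score per array was formed as the mean log2 deviation of the tested members from their own 8-array means. For S phase genes it was -0.32, -0.20, -0.01 and 0.40 in controls 1 to 4 and 0.14, 0.29, -0.17 and -0.13 in VP16LXRa 5 to 8. The group means were -0.03 ± 0.31 and 0.03 ± 0.22 (SD, n = 4 each). For mitosis genes the score was -0.41, -0.23, -0.16 and 0.65 in controls 1 to 4 and -0.01, 0.40, -0.11 and -0.12 in VP16LXRa 5 to 8. The group means were -0.04 ± 0.47 and 0.04 ± 0.24 (SD, n = 4 each). In both scores every VP16LXRa array lay between control 1 and control 4.

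**Figure D3:**
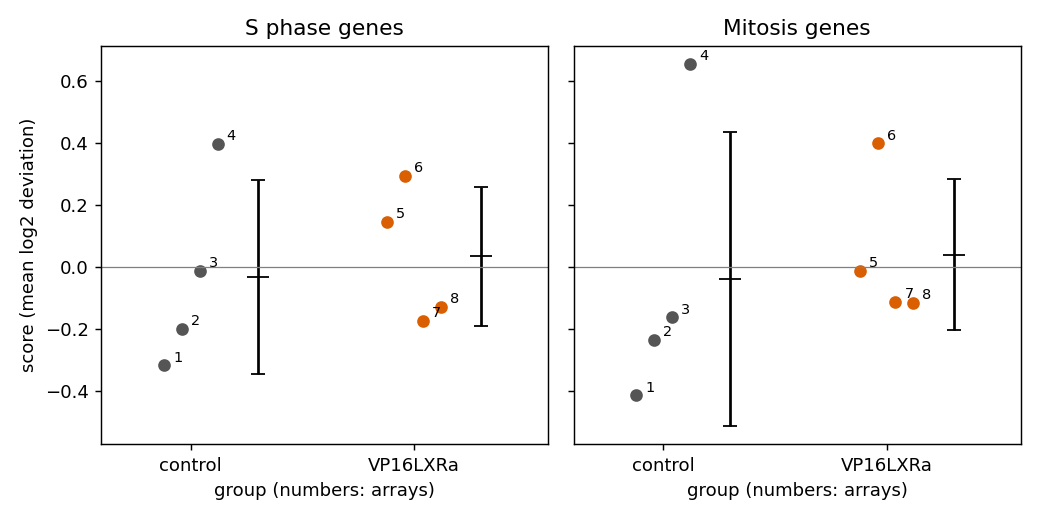
Score of S phase genes (left, 12 genes) and of mitosis genes (right, 18 genes) in each array, as mean log2 deviation on the y axis and group on the x axis. Points are arrays with their numbers, and the bars beside them give the mean ± SD of 4 arrays. Control 4 is the highest point in both panels, at 0.40 and 0.65, and control 1 the lowest.

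Gene by gene, 89 of the 120 VP16LXRa values lay inside the range of the 4 controls, and for 10 of the 30 genes (2 of S phase, 8 of mitosis) all 4 did. These are 74.2% of the values and 33.3% of the genes, against 66.4% and 27.2% over all genes. The controls had the larger SD for 20 of the 30 genes (66.7%, against 55.2% of all genes), with a median SD of 0.46 against 0.41 in VP16LXRa tumours. Leaving out control 4, 11 of 12 S phase and 16 of 18 mitosis genes were higher in VP16LXRa tumours. The median differences were 0.15 and 0.33, and 0 members passed the threshold. Control 4 lay above the 8-array mean in 27 of the 30 genes, so leaving it out raises their differences by construction. The share of all genes that were higher in that setting is not given here. Leaving out control 1, the mitosis median was -0.04, with 7 of 18 genes higher. Without VP16LXRa 6 the medians were -0.063 for S phase and -0.021 for mitosis genes, and without VP16LXRa 5 the S phase median was -0.023. The direction of the lists' medians thus depended on single arrays of either group.

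The scores of some markers of other cell types, but not of all, also stood at an extreme in control 4. Over all genes control 4 was the highest array for 16.4% and the lowest for 17.5%. Its score of mature enterocyte markers (5 of 10 tested) was -1.34, the lowest of all arrays. It was -0.96, 0.86 and 0.36 in controls 1 to 3 and from 0.08 to 0.62 in VP16LXRa tumours. Fabp1, Fabp2 and Slc10a2 of that list were detected on no array. Its fibroblast score (7 of 7 tested) was 1.01, the highest, with controls from -1.56 and VP16LXRa tumours from -0.22 to 0.98.

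The macrophage score (6 of 6 tested) was likewise highest in control 4, at 0.90, with controls from -0.73 and VP16LXRa tumours from -0.51 to 0.10. Its markers were divided, with Cd14, Lyz2 and Mrc1 highest in control 4 and Csf1r, Emr1 and Cd68 highest in control 2. The lowest VP16LXRa score was that of VP16LXRa 5, where Lyz2 was at 4.57, against 7.95 to 11.29 on the other arrays. In control 4 the T cell score (5 of 6 tested) was the lowest, at -1.04, with controls up to 1.46 and VP16LXRa tumours from -0.65 to 0.47. The epithelial score (8 of 9 tested) was -0.15, inside the control range of -0.27 to 0.40, with VP16LXRa tumours from -0.23 to 0.01. The smooth muscle score (7 of 8 tested) was -0.47 in control 4 and -2.96 in control 3, with controls up to 0.69 and VP16LXRa tumours from 0.15 to 1.11. The part of these markers in the level of the S phase and mitosis genes was not tested.

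Germinal centre B cells divide fast and could carry such transcripts into a tumour sample. Of their markers, Gcet2 was detected on 1 array and Mybl1 on 0, and the score of the 3 tested ones was -0.19 in control 4, with controls from -0.43 to 0.61 and VP16LXRa tumours from -0.19 to 0.45. The B cell score (3 of 7 tested) was 0.55 in control 4 and 2.47 in control 2, with controls from -0.79 and VP16LXRa tumours from -1.14 to -0.17. Pax5 was detected on no array.

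Several members had more than 1 tested probe, which shows how firmly the value of an array stands. Of these 8 genes, the probes' differences between the groups lay at most 0.36 apart (Rfc4, 0.09 and -0.27). Single arrays were less even. Taking each probe's deviation from the median of the other 7 arrays, the probes of a gene spread by a median of 0.86 in VP16LXRa 5, against 0.31 to 0.70 in the other arrays. Over all 2427 genes with at least 2 tested probes, the spread was 0.70 in VP16LXRa 5 and 0.30 to 0.38 elsewhere.

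For Tyms, thymidylate synthase, the brightest probe was at 7.96, 7.70, 8.72 and 9.66 in controls 1 to 4 and at 7.07, 9.50, 8.71 and 8.83 in VP16LXRa 5 to 8. In VP16LXRa 5 its probes lay from 1.65 below to 0.45 above the median of the other arrays, while in that same array the 4 Cdc20 probes lay from 1.33 below to 0.39 above it. The low value of VP16LXRa 5 came from the faintest of the 4 Cdc20 probes alone, at 4.80 to 7.11 over the arrays. It was at 4.80 in VP16LXRa 5 and was detected on 3 of the 4 VP16LXRa arrays. For Tyms the probe that lay above was near the background, at 4.68 to 5.40 over the arrays and detected on 2 arrays of each group. The other tested Tyms probes were both low in VP16LXRa 5, at 7.07 and 5.43. The parting of the Tyms probes thus rests on the faint one, and that of the Cdc20 probes on their faintest. In control 4 all tested probes lay above the median of the other 7 arrays for 6 of the 8 genes. They did so by 0.61 to 1.04 for Cdc20, 0.70 to 0.96 for Birc5, 0.77 to 0.93 for Ccnb1 and 0.34 to 0.95 for Tyms. Tk1 (0.16 to 0.42) and Rrm2 (0.13 to 0.18) showed less. For the other genes the probes fell on both sides of that median, from -0.11 to 0.92 for Cdc2a and from -0.10 to 0.25 for Rfc4. The lower Cdc2a value came from its faint probe, detected on 3 arrays of each group.

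**Figure D4:**
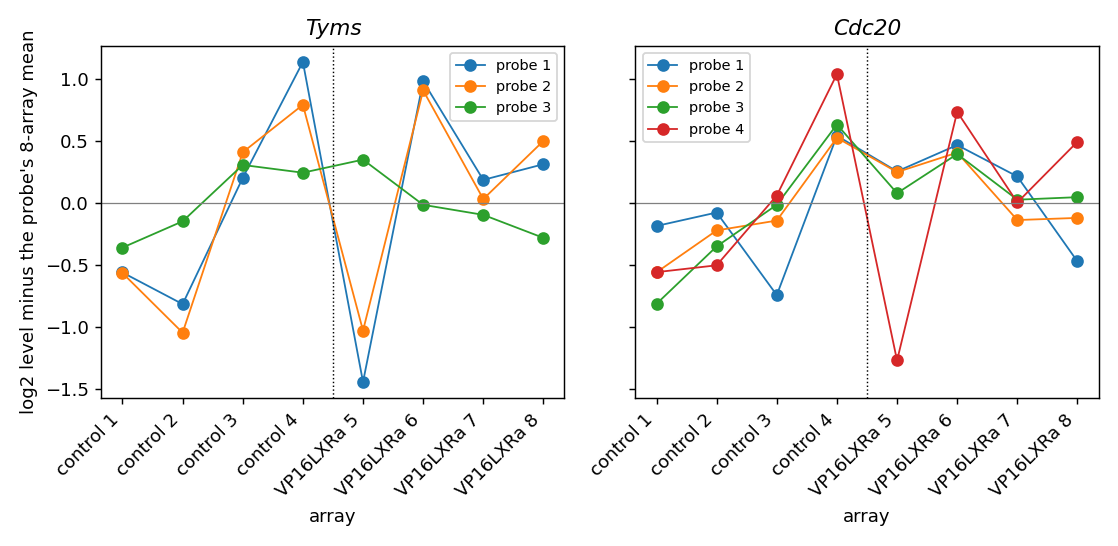
Log2 level of each tested probe of Tyms (left, 3 probes) and Cdc20 (right, 4 probes) in each array, minus the probe's own 8-array mean. Arrays are on the x axis, with controls left of the dotted line. In VP16LXRa 5 the probes of a gene part, with 2 of 3 Tyms probes and 1 of 4 Cdc20 probes far below 0, while all Cdc20 probes are high in control 4. The other Tyms probe is near the background, detected on 2 arrays of each group. The low Cdc20 probe is the faintest of the 4, at 4.80 in VP16LXRa 5 and detected on 3 of the 4 VP16LXRa arrays.

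Group differences were set beside the promoter elements. Of the tested S phase genes, the 3 with E2F letters, Cdc6, Cdt1 and Rfc3, had differences of -0.28 to -0.06 (median -0.16), and the 9 without had -0.06 to 0.45 (median 0.11). Control 4 was the highest array for all 3 of the former and for 2 of the latter. Among mitosis genes with a promoter entry, the 12 with CHR letters had a median of 0.09 and the 4 without a median of 0.16. Control 4 was the highest array for 8 of these 12 and 3 of these 4. These are descriptions of few genes, without a test.

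Further genes of the same processes were read from lists of their own. Of 38 other S phase genes, 30 were tested, of which 14 had a higher and 16 a lower mean in VP16LXRa tumours (median -0.05). None passed the adjusted threshold in limma and 1 of the 30 had an unadjusted p under 0.05, against 262 of all 10159 tested genes. That background applies to the other mitosis genes and the regulators below as well. The 1 S phase gene was Pold3, a subunit of DNA polymerase δ, at 8.91, 8.61, 9.16 and 9.40 in controls 1 to 4 and at 10.24, 9.45, 10.04 and 9.11 in VP16LXRa 5 to 8. VP16LXRa 8 lay among the controls and the other 3 above them. The difference was 0.69 (SE 0.31, unadjusted p = 0.0499, limma adjusted p = 0.998).

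Of the replication protein A subunits, which coat single-stranded DNA, Rpa3 differed by 0.55 (SE 0.32) and Rpa1 by -0.15 (SE 0.30). Rpa2, named here after its values were seen, had the lowest difference of the list, -0.61 (SE 0.62), with 4.56 and no detection in VP16LXRa 5 and 7.06 to 7.95 in the other arrays. Rfc2 of the clamp loader differed by -0.15 (SE 0.24). The score of these other S phase genes was highest in control 4 (0.35) and lowest in control 1 (-0.26), as for the S phase members.

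Of 57 other mitosis genes, 37 were tested, 25 higher and 12 lower, with a median of 0.11, and 0 passed at an adjusted or unadjusted limma p of 0.05. Pttg1, securin, which holds back the separation of sister chromatids, differed by -0.46 (SE 0.31) and was detected on all 4 control and 1 of 4 VP16LXRa arrays. It was at 5.47, 5.55, 5.83 and 5.39 in controls and at 4.82, 4.90, 4.70 and 5.98 in VP16LXRa tumours. VP16LXRa 8 was thus the highest array of all and the other 3 VP16LXRa arrays were the lowest. Without VP16LXRa 8 the difference was -0.76 (limma unadjusted p = 0.00920, adjusted p = 0.962), and with no background correction it was -0.12. Ndc80, a kinetochore protein that binds microtubules, differed by 0.35 (SE 0.26), Prc1, which bundles the midzone of the spindle, by 0.14 (SE 0.32) and Cdca3 by -0.09 (SE 0.34). The score of this list was highest in VP16LXRa 5 (0.36), with control 4 next at 0.25.

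Of 24 regulators of cell cycle transcription, 17 were tested, 10 higher and 7 lower, with a median of 0.02, and 0 passed at either threshold in limma. E2f2, an activating E2F, was at 9.82, 9.79, 9.97 and 10.09 in controls 1 to 4 and at 10.22, 10.08, 10.25 and 10.52 in VP16LXRa 5 to 8. VP16LXRa 6 lay just under control 4 and the other 3 above every control. The difference was 0.35 (SE 0.20), with the other probe at 0.26. Rbl1, the pocket protein p107 that restrains E2F, differed by -0.39 (SE 0.26).

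Nfyc, a subunit of the CCAAT-binding factor NF-Y, differed by 0.18 (SE 0.19). Fzr1, the activator of the anaphase-promoting complex in late mitosis and G1, differed by -0.19 (SE 0.21). Its further probes gave -0.30 and -0.90, the latter with 6.23 in VP16LXRa 5 and 8.82 to 9.52 in the other arrays. The score of the regulators stayed between -0.08 and 0.11 over the 8 arrays, a narrower range than that of the S phase or mitosis members. Genes that move in opposite directions offset each other in such a mean. Gene by gene, the median range over the arrays was 1.03 for the regulators, against 1.20 for S phase and 1.40 for mitosis members.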

How the data were processed

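The deposited scanner table gives for each probe and array a signal, headed by the sample title, and the p-value of its detection. The signal was read as a mean bead intensity (linear), with no background subtraction or normalization apparent in the values. The submitters' processing notes name GenomeStudio. The authors' processed intensity table of the same arrays served as an alternative, floored at 16. No column was left unused (0 in all).

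Signals were background-corrected by normexp (offset 16, negative controls derived from the detection p) in limma 3.58.1 with R 4.3.3 and statmod 1.5.0, then quantile-normalized and turned into log2. Of 25697 probes, 13426 with a detection p under 0.05 on 4 or more arrays entered a two-sided lmFit and eBayes comparison without covariates, at a Benjamini-Hochberg adjusted p of 0.05. The fit was tested on simulated data. A gene was read from its brightest tested probe. Genes are named by the smallest p and highest mean per list, with Pcna, Top2a and Mki67 added; others are given by range. Members and lists were chosen with earlier results of these data known. Alternatives covered background, offset, normalization, filter, array weights, variance prior, probe choice and each array left out. Promoters are RefSeq's for GRCm38.p6. A marker gene of the lists is not reported here. The number of arrays limits the precision.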

Additional observations from a re-analysis of the deposited data

Results flagged for a closer look

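In 36 sets of 4 values (the named genes' levels and the scores, each within a group), the highest or lowest array was set against the other 3 with Dixon's criterion, a gap above its 95% critical value as a share of the whole range. Of these, 2 sets met it, where chance at 1 in 20 gives 1.8. Rfc3, of the clamp loader, was at 7.775 in control 4, with the other controls between 6.707 and 6.787. Cdt1, the licensing factor, was at 9.857 in control 4, with the other controls between 8.934 and 8.99. Both are S phase genes, and the array is the one in which the S phase and mitosis scores were highest. Both genes are part of that S phase score, so it is no separate observation.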

How the results depend on the processing

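In all 19 alternatives run, 0 S phase or mitosis members passed the threshold, and between 0 and 3 had an unadjusted p under 0.05. The count over all probes at that unadjusted p ran from 209 of 9810 to 852 of 13426. The former is with probes detected on all 8 arrays, where 0 of 36 member probes were called. The latter is with array weights, where 1 of 42 member probes was called. Of all probes, 1 passed with cyclic loess, 2 with array weights, 0 to 2 with single arrays left out and 10 without both VP16LXRa 5 and control 4, against 0 in the report. That last setting was chosen after seeing the data, partly because control 4 stood high in these genes, so its values are no independent support. There the median was 0.08 for S phase and 0.36 for mitosis genes, and the 3 members with an unadjusted limma p under 0.05 were Cdc2a (0.91), Cdc20 through 1 probe (0.75) and Tyms (0.89), with limma adjusted p-values of 0.770 to 0.784. These are 7.14% of the member probes, against 6.26% of all probes in that setting. Over 20 alternatives the S phase median ran from -0.06 (without VP16LXRa 6) to 0.20 (array weights) and the mitosis median from -0.04 (without control 1) to 0.37 (array weights). Control 4 kept the highest score of all arrays in each of the 14 alternatives in which it was computed, at 0.27 to 0.44 for S phase and 0.48 to 0.71 for mitosis genes.

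Of 502 values for 28 named differences, 478 kept their direction, 24 over 9 genes turned, and 0 crossed the threshold. With array weights these were Cdt1 (0.14), Fen1 (0.073), Birc5 (0.073), Top2a (0.50) and Cdca3 (0.020), and without both arrays Cdt1 (0.093), Birc5 (0.044) and Top2a (0.55). Leaving out single arrays, the ranges were -0.34 to 0.061 (Cdt1), -0.16 to 0.066 (Fen1), -0.26 to 0.12 (Birc5), -0.48 to 0.23 (Top2a), -0.31 to 0.16 (Cdca3), -0.049 to 0.41 (Cenpa), -0.056 to 0.38 (Prc1), -0.021 to 0.23 (Tk1) and -0.34 to 0.013 (Rpa1). The cause was not tested. A BeadChip block was not run, since the files name no chip. No paired analysis was possible because the arrays are numbered 1 to 4 in one group and 5 to 8 in the other. VP16LXRa 5, whose probes of a gene part most, limits what its single values can carry, and members near the background have no measured level.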
